A study of Mus musculus with 8 samples.

Results

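Transferred CD4 T cells that lacked the complement receptor C5aR1 were compared with wild type (WT) cells after sorting for surface CXCR5 and PD1, which together mark T follicular helper (TFH) cells. The comparison takes every TFH-labelled library of the series, 4 of 8 in all, with 2 libraries from C5aR1-deficient (KO) donors and 2 from WT donors. It covers all 14042 genes of the deposited tables. Donor spleen cells depleted of CD8 cells had been given to (bxd)F1 mice, and on day 7 donor CD4 cells positive for CXCR5 and high for PD1 were sorted from the spleen. The remaining 4 libraries are naive CD4 cells (CD62L high, CD44 low), 2 from WT and 2 from C5aR1-deficient mice, and they serve here only for a second comparison of the genotypes. The labels give no age, no sex, no number of pooled animals and no receptor genotype for the F1 host, and they do not say how the receptor was deleted. Whether the libraries within a group stem from different animals is not labelled either, so p-values measure only the spread among samples, and that spread may be technical.

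TFH cells are CD4 T cells that move into B cell follicles and help B cells form germinal centres. The transcription factor Bcl6 drives their program, the chemokine receptor CXCR5 brings them to the follicle, and the cytokines IL-21 and IL-4 together with the surface molecules ICOS and CD40L carry the help. C5aR1 is a G protein-coupled receptor for C5a, a fragment released when complement is activated, and it signals through inhibitory G proteins, phosphoinositide 3-kinase and MAP kinases. When parental T cells are moved into an F1 host they start a graft-versus-host response in which donor T cells meet host B cells.

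Values are the deposited log2 levels, and a difference is the KO mean minus the WT mean on that scale, given with its standard error (SE) and n = 2 libraries a side. The 8 libraries share 1 quantile-normalized distribution with a median of 10.14, so read depth is unknown and counting intervals are left out. The 8 TFH marker genes averaged 11.02 to 11.60 in the TFH libraries and 10.26 to 10.75 in the naive libraries. Cxcr5, which encodes a marker of the sort, went against the labels, at 10.85 to 11.56 in TFH and 11.56 to 12.45 in naive libraries. Il21, at 9.58 to 10.40 against 7.31 to 8.19, went with them. The deleted gene C5ar1 was not analysed here, which leaves the genotype labels without a check on that gene. The 7 CD4 T cell markers averaged 14.61 to 14.79 in the 4 TFH libraries. With bulk RNA, fewer cells of a type and less RNA per cell cannot be told apart.

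No gene passed an adjusted p of 0.05 between KO and WT TFH libraries (0 of 14042, 0.0%, limma with Benjamini-Hochberg adjustment). An unadjusted p below 0.05 was reached by 506 genes (3.6%), of which 230 were higher in KO (1.64%) and 276 lower (1.97%). Both KO libraries lay above both WT libraries for 2320 genes (16.5%) and below both for another 2320 (16.5%). These percentages over all genes are the background for every gene group below. Apart from a fixed set with Bcl6, most single genes below were named for a wide gap or a small p. Their separation follows in part from that choice. A gap of at least 0.3 on the log2 scale between the nearest KO and WT library was rare, with 90 genes above (0.641%) and 125 below (0.89%). The smallest two-sided p that an exact permutation test allows for this design is 0.33, so a complete separation of the genotypes is reported here as a description and not as a call.

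B cell genes differed more between libraries of the same genotype, by the median gene, than any other list examined. The 15 B cell markers averaged 8.05 in WT replicate 1, 10.03 in WT replicate 2, 7.88 in KO replicate 1 and 11.43 in KO replicate 2. In linear terms they made up 0.0189%, 0.0667%, 0.0148% and 0.182% of the summed level of those libraries. Both replicates 1 were thus low, both replicates 2 were high, and KO replicate 2 was highest. Ms4a1, the gene for CD20, stood at 6.70 and 9.88 in WT and at 7.12 and 11.38 in KO. Pax5, the B lineage transcription factor, was 7.27 and 8.34 against 7.38 and 9.75. The genotypes overlapped for both genes, since the range within a genotype was wider than the step between genotypes.

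Over 46 measured B cell genes of 51 listed, the median difference was 0.69 and 42 were higher in the KO mean (50.3% of all genes were), yet 1 gene lay above and 1 below in both KO libraries. Those were Cd37, a tetraspanin gene also used by T cells, at 13.04 and 13.13 in WT and 13.21 and 13.44 in KO, and Cxcr5. For the 22 of these genes with little known use in T cells, the median difference was 0.76 and none separated the genotypes. Without KO replicate 2 that median was -1.01, without KO replicate 1 it was 2.48, without WT replicate 1 it was -0.32 and without WT replicate 2 it was 1.69. The sign of the B cell difference therefore rested on which library was left out. The plot of marker genes by library sets this next to the T cell identity genes, whose medians relative to each gene's mean stayed between -0.05 and 0.05. Of these 24 genes, 8 still lay below WT in both KO libraries (33.3%) and 3 above (12.5%).

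**Figure D1:**
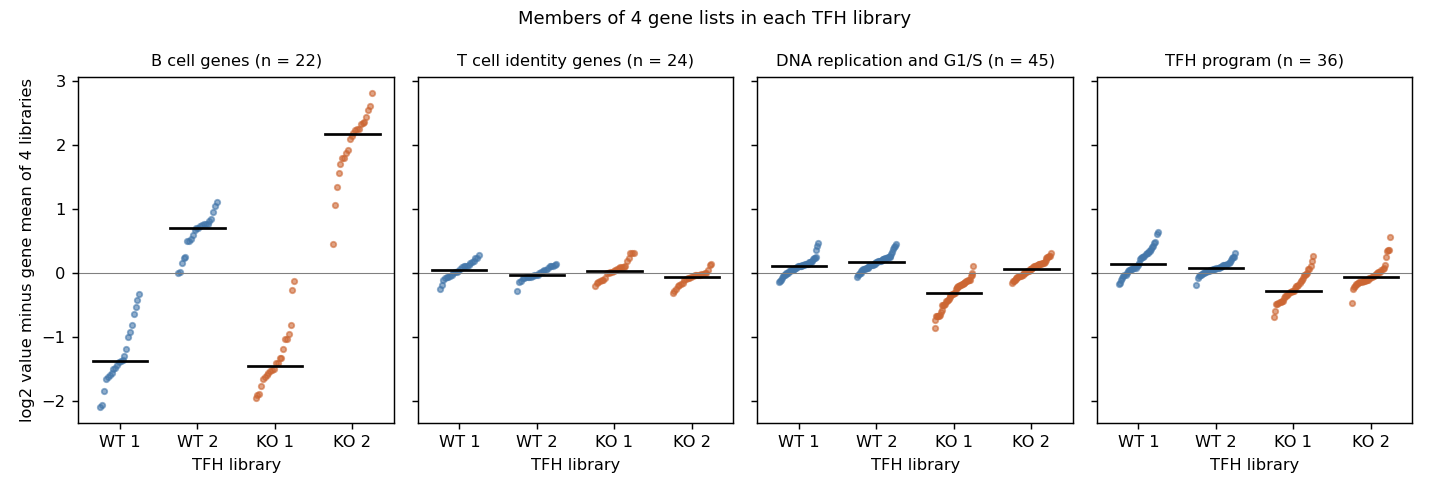
Each point is 1 gene, plotted as its log2 value minus its mean over the 4 TFH libraries, for 22 B cell genes, 24 T cell identity genes, 45 DNA replication and G1/S genes and 36 TFH program genes. Black lines are medians. B cell genes are low in both replicates 1 (medians -1.38 and -1.45) and high in both replicates 2 (0.71 and 2.17), while T cell identity genes stay near 0.

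Other cell types were followed in the same way. The 7 myeloid markers averaged 7.86 and 8.85 in WT and 8.18 and 9.12 in KO, and the 4 NK cell markers 7.82 and 8.65 in WT and 8.64 and 9.03 in KO. The 2 CD8 genes averaged 7.41 and 8.06 against 7.68 and 9.03. All 3 sets were higher in replicate 2 than in replicate 1 of either genotype, as the B cell markers were. The order of the replicates carries no meaning in the labels, and the part of these cells in any difference between genotypes was not tested beyond the values given here. The Y-linked gene Ddx3y lay at 12.84 to 13.16 in all 4 TFH libraries.

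Because B cell content ran across the genotypes, each KO library was also set against the WT library with the nearer B cell level. In the pair with few B cell transcripts (replicates 1) the 22 B cell genes had a median difference of 0.06, and in the pair with more (replicates 2) 1.41, so the second pair remained unequal. Of all genes, 4053 were higher in KO in both pairs (28.9%) and 4159 lower in both (29.6%). The TFH program had median differences of -0.46 and -0.11 in these pairs, DNA replication genes -0.40 and -0.08, and interferon-stimulated genes -0.32 and -0.09. These medians were thus below 0 in both pairs and smaller in the pair with more B cell transcripts. Heat shock chaperones (-0.14 and -0.14) and regulatory T cell genes (-0.14 and -0.15) were nearly the same in both. With the mean of the B cell markers as a covariate over all 8 libraries, the median difference of the TFH program was -0.26 and that of the interferon-stimulated genes -0.21. The median of the 22 B cell genes was then 0.17, a fall that adjusting B cell genes for their own level brings by construction.

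**Figure D2:**
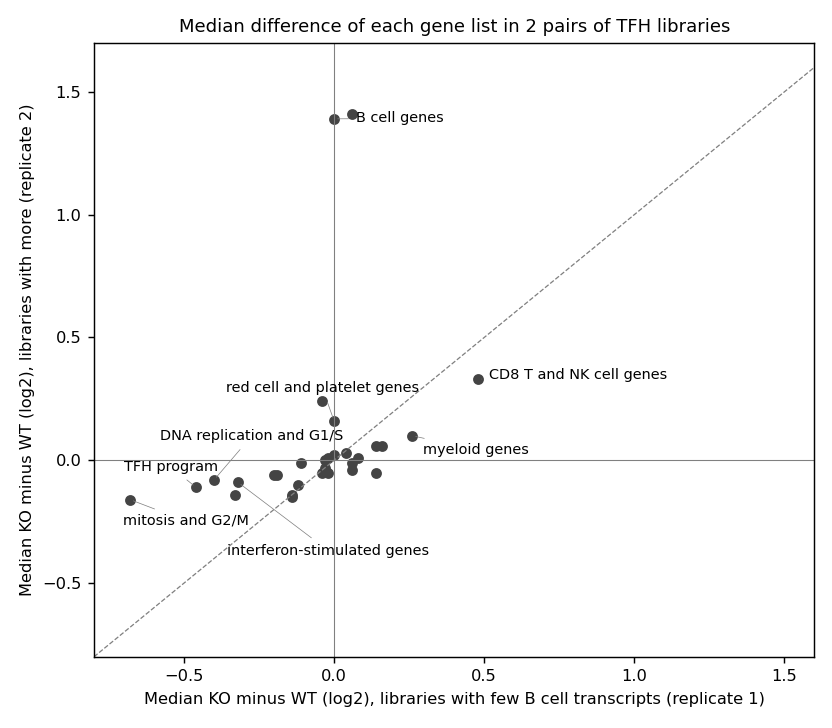
Each point is 1 of 30 gene lists, with its median KO minus WT difference (log2) between the replicates 1, which hold few B cell transcripts, on the horizontal axis and between the replicates 2, which hold more, on the vertical axis. The dashed line marks equal values. The B cell lists stand apart at about 0 on the horizontal axis and near 1.4 on the vertical axis.

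The TFH program was the list with the largest share of members below WT in both KO libraries, but only narrowly. Glycolysis (58.1%) and regulatory T cell genes (57.1%) had nearly the same share, and DNA replication genes had 51.1%. Of 36 measured genes of 38 listed, 21 lay below (58.3%, against 16.5% of all genes), 1 lay above and 14 overlapped, with a median difference of -0.17 against 0.00 over all genes. By unadjusted p below 0.05, 7 were lower and none higher, and none passed adjustment. The median was -0.44 without KO replicate 2 and -0.27 without WT replicate 2. It was -0.20 without KO replicate 1, -0.15 without WT replicate 1 and -0.11 without replicate 1 of both genotypes. Cd200, an immunoglobulin superfamily ligand that is abundant on TFH cells, was 12.21 and 12 in WT and 11.37 and 11.63 in KO, a difference of -0.60 ± 0.12 (adjusted p = 0.982, limma). Tox, a transcription factor gene of the same program, was 12.55 and 12.38 against 11.96 and 12.14 (-0.42 ± 0.11). For both genes every KO library lay below every WT library, with KO replicate 1 lowest.

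Among secreted and surface helper molecules, Il21, Il4 and Tnfsf8 had the same arrangement. Il21 was 10.40 and 10.28 in WT and 9.58 and 9.95 in KO (-0.58 ± 0.24). Il4 was 9.29 and 8.67 in WT and 8.44 and 8.18 in KO (-0.67 ± 0.26). Tnfsf8, the gene for CD30 ligand, was 13.10 and 12.85 in WT and 12.37 and 12.61 in KO (-0.48 ± 0.18). KO libraries were the lower ones in all 3 cases without overlap. Cd40lg, the gene for CD40L and central to B cell help, was not arranged in that way, at 12.14 and 12.17 in WT and 12.27 and 12.09 in KO (0.03 on average).

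Surface receptors and regulators of the program divided between separation and overlap. Pdcd1, the gene for the inhibitory receptor PD1, was 12.85 and 12.52 against 11.88 and 12.21 (-0.64 ± 0.51), and its 95% interval ran from -2.01 to 0.73. Icos was 13.22 and 13.16 against 12.69 and 12.87 (-0.41 ± 0.25), and Cxcr5 was 11.56 and 11.33 against 10.85 and 11.23 (-0.40 ± 0.34). Ascl2, a transcription factor gene that promotes CXCR5, was 9.17 and 8.84 against 8.26 and 8.56 (-0.60 ± 0.26). Each of these 4 genes was lower in both KO libraries, and none passed adjustment. Bcl6 overlapped, at 11.72 and 11.70 in WT and 11.33 and 11.92 in KO, and its interval of -0.52 to 0.36 leaves room for a difference either way. Sh2d1a, the gene for the adaptor SAP, overlapped too, with a difference of -0.14. The only member above WT in both KO libraries was Tcf7, which encodes TCF-1, at 16.24 and 16.29 against 16.38 and 16.36.

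For genes of the opposite set, which keep T cells out of the follicle or in a resting state, the counts ran the other way. Of 35 naive and quiescence genes 13 lay above WT in both KO libraries (37.1%) and 2 below (5.71%), with a median difference of 0.10. Il7r, the receptor for the survival cytokine IL-7, was 12.83 and 13.05 in WT and 13.58 and 13.27 in KO (0.49 ± 0.15). Ccr7, the receptor that holds T cells in the T cell zone, was 14.46 and 14.44 against 14.79 and 14.63 (0.26 ± 0.12). Foxo1, a transcription factor gene of resting T cells, was 13.62 and 13.72 against 14.07 and 13.83 (0.28 ± 0.12). KO replicate 1 was the highest library for all 3 genes, and without it the median of the list was 0.02.

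Among 17 genes that counter the TFH program or serve egress, 6 lay above (35.3%) and 3 below (17.6%). Their median difference was 0.05, and it was -0.03 without KO replicate 1. S1pr1, the egress receptor, was 14.23 and 14.15 in WT and 14.44 and 14.31 in KO (0.19 ± 0.12), and its activator Klf2 differed by 0.08. Prdm1, which encodes the Bcl6 antagonist Blimp-1, overlapped at 10.10 and 10.26 against 9.31 and 10.10. Slfn2 and Socs3, a quiescence gene and an inhibitor of cytokine signalling, were the 2 naive-list members below, Slfn2 at 13.75 and 13.54 against 13.38 and 13.29 (-0.31 ± 0.11). The list medians for the naive libraries, which are other samples, were -0.12 for the naive and quiescence genes and 0.08 for the TFH program.

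**Figure D3:**
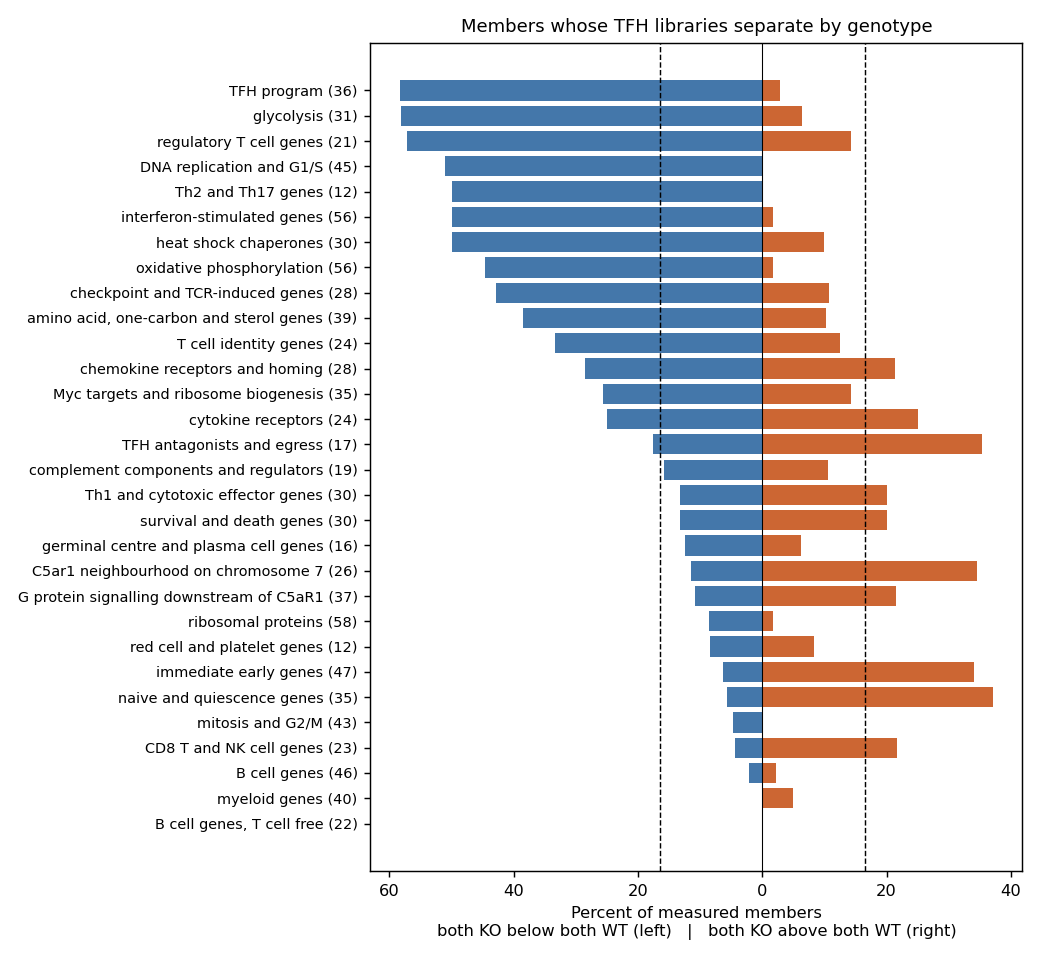
Bars give the percent of each list's measured members (number in brackets) for which both KO TFH libraries lay below both WT libraries (left, blue) or above them (right, orange). Dashed lines mark the share over all genes, 16.5% on each side. The TFH program has the longest bar on the left at 58.3%, close to glycolysis (58.1%) and regulatory T cell genes (57.1%). The naive and quiescence genes have the longest on the right at 37.1%, close to TFH antagonists and egress (35.3%).

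DNA replication genes lay below WT in KO, and most of the distance came from KO replicate 1. Of 45 genes of DNA replication and G1/S, 23 lay below in both KO libraries (51.1%) and 0 above, and the median difference was -0.23. Mcm6, a subunit of the replicative helicase, was 12.98 and 12.77 in WT and 12.20 and 12.55 in KO (-0.50 ± 0.14). Its partner Mcm5 was 12.72 and 12.76 against 12.17 and 12.64 (-0.33 ± 0.14). KO replicate 1 was the lowest library for both genes, and the median of the list was -0.05 without it and -0.44 without KO replicate 2.

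The 43 mitotic and G2/M genes had a larger median difference, -0.44, with little separation. Only Ccnb2 (cyclin B2) and the spindle checkpoint kinase gene Ttk lay below in both KO libraries (4.65%), and 0 lay above. Mki67, the common marker of cycling cells, was 12.27 and 13.24 in WT and 11.52 and 12.99 in KO (-0.50 ± 0.68). Ccnb1 (cyclin B1) was 9.99 and 10.47 against 8.96 and 10.30. Both genes were high in replicate 2 of both genotypes, the libraries with more B cell transcripts. Without KO replicate 1 the median of the list was 0.03 and the Mki67 difference 0.24, so the direction hung on that library. The median was -0.87 without KO replicate 2 and -0.21 without WT replicate 2.

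The promoter of Mcm6 is shown because it carries the E2F element through which replication genes are driven in the cell cycle. The 250 bases before its start lie at chr1:128359706-128359955 on the minus strand of GRCm38.p6 (RefSeq). Matches to the E2F element, searched as TTTCGCGC or TTTGGCGC on both strands, are in capitals.
Mcm6: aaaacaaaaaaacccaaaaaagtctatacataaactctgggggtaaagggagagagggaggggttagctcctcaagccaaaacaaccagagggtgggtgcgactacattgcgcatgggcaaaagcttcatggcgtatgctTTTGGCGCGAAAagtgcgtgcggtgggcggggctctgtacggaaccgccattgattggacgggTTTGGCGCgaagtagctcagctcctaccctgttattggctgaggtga
The window holds 3 matches, a pair of which overlap on opposite strands, with first bases from 110 to 47 bases before the start. Such a match stood in 7 of 38 replication genes with a window (18.4%) and in 1.37% of 10875 genes. Among replication genes it was found in 3 of 18 that lay below WT in both KO libraries (16.7%) and in 4 of the other 20 (20%). A match is a run of letters and not a measured binding site.

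Interferon-stimulated genes also lay below WT in KO. Of 56 genes 28 lay below in both KO libraries (50%), 1 lay above and the rest overlapped, with a median difference of -0.22. By unadjusted p below 0.05, 11 were lower and none higher. Isg15, which encodes a ubiquitin-like modifier, was 11.57 and 10.98 in WT and 10.51 and 10.47 in KO (-0.79 ± 0.18). Ifih1, which encodes the RNA sensor MDA5, was 11.51 and 11.50 against 10.97 and 11.15 (-0.44 ± 0.10). Rsad2, the gene for the antiviral enzyme viperin, was 9.82 and 9.05 against 8.98 and 8.65 (-0.62 ± 0.25). All 3 genes separated the genotypes, though narrowly for Rsad2, whose lower WT library was nearly at the level of its higher KO library.

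Other members included the guanylate-binding protein gene Gbp2 at 13.53 and 13.24 against 12.87 and 13.01, the immunity-related GTPase gene Irgm2 (-0.48 ± 0.14), Oasl2 (-0.49 ± 0.19) and Ifi47 (-0.42 ± 0.16). WT replicate 1 was the highest of the 4 libraries for Isg15, Ifih1, Rsad2 and Gbp2. Without that library the median of the list was -0.11, and without WT replicate 2 it was -0.32. Ddx58, the gene for the sensor RIG-I, was counted above WT at 12.74 and 12.75 against 12.75 and 12.89, with the higher WT and the lower KO library equal at these digits. Ifit1, Ifit2, Ifit3 and Irf7, which are classical interferon targets, overlapped, with Irf7 at 12.95 and 12.66 against 12.67 and 12.63.

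The windows of Isg15 and Rsad2 are shown for the interferon-stimulated response element, searched on both strands as a pair of GAAA runs with any 2 bases between them and given in capitals. They lie at chr4:156200819-156201068 and chr12:26456453-26456702, both on the minus strand of GRCm38.p6, and end at the base before the RefSeq start.
Isg15: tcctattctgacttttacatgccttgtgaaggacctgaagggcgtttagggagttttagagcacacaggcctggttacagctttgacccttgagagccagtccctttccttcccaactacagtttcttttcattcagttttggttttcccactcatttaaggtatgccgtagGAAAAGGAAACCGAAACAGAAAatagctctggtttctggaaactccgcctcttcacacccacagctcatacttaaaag
Rsad2: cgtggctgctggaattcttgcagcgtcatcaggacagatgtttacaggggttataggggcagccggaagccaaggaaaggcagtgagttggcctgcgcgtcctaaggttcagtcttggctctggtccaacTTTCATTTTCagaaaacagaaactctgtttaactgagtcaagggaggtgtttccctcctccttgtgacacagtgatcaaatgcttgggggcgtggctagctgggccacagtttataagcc
Isg15 holds 3 overlapping matches from 78 to 66 bases before the start and Rsad2 holds 1 at 120 bases, read on the opposite strand. The element stood in 20 of 44 interferon-stimulated genes with a window (45.5%) and in 3.4% of 10875 genes. It was found in 10 of 19 interferon-stimulated genes below WT in both KO libraries (52.6%) and in 10 of the other 25 (40%). Over all genes it stood in 4.16% of those below, 2.31% of those above and 3.49% of those that overlapped.

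Genes of energy and amino acid metabolism lay below by small amounts. Of 31 glycolysis genes 18 lay below in both KO libraries (58.1%) and 2 above, with a median difference of -0.14. Pgk1, phosphoglycerate kinase, was 13.94 and 13.68 in WT and 13.43 and 13.50 in KO (-0.35 ± 0.12). Ldha, lactate dehydrogenase, was 15.13 and 14.86 against 14.76 and 14.69 (-0.27 ± 0.12). Slc16a3, a lactate exporter, was 9.19 and 8.41 against 7.88 and 8.41 (-0.66 ± 0.29). The genotypes separated for Pgk1 and Ldha, while the lower WT and the higher KO library of Slc16a3 were equal at these digits. WT replicate 1 was highest for each of these genes.

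Oxidative phosphorylation had 25 of 56 genes below (44.6%), 1 above and a median of -0.13, but 0 genes at an unadjusted p below 0.05. Without WT replicate 1 that median was -0.03, and without WT replicate 2 it was -0.22. Among 39 amino acid, one-carbon and sterol genes 15 lay below (38.5%) and 4 above (10.3%). Psat1, an enzyme of serine synthesis, was 12.09 and 12.05 in WT and 11.33 and 11.71 in KO (-0.55 ± 0.13). Slc1a4, a transporter of neutral amino acids, was 9.57 and 9.38 against 8.69 and 8.98 (-0.64 ± 0.21). Slc1a5, the glutamine transporter gene, belongs to this list too and is described with the genes around C5ar1.

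Genes that answer T cell receptor signals went both ways. Of 47 immediate early genes 16 lay above WT in both KO libraries (34%) and 3 below (6.38%), with a median difference of 0.11. That median was 0.04 without WT replicate 1, 0.06 without KO replicate 2 and 0.17 without WT replicate 2. Irs2, an adaptor of insulin and cytokine receptors, was 11.77 and 12.37 in WT and 12.56 and 12.84 in KO (0.62 ± 0.19). Jund and Fosl2, subunits of the transcription factor AP-1, differed by 0.30 ± 0.12 and 0.30 ± 0.14. Nr4a1, a nuclear receptor gene induced by antigen, was 14.22 and 14.29 against 14.53 and 14.38. Dusp6, a phosphatase gene of the MAP kinase ERK, was among the 3 below, at 12.55 and 12.47 against 12.26 and 12.34.

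Of 28 checkpoint and receptor-induced genes 12 lay below (42.9%) and 3 above (10.7%). Havcr2, the gene for TIM-3, was 8.21 and 8.27 against 7.27 and 7.79 (-0.71 ± 0.28). Ctla4, an inhibitory receptor gene, was 14.53 and 14.49 against 14.10 and 14.34, and Lag3 13.66 and 13.26 against 12.40 and 13.07. KO replicate 1 was the lowest library for all 3. Of 21 regulatory T cell genes 12 lay below (57.1%), 3 above and 0 passed an unadjusted p of 0.05, and Foxp3, their lineage factor, differed by -0.02. Of 12 Th2 and Th17 genes 6 lay below and 0 above, among them Gata3, the Th2 factor, at 12.41 and 12.41 against 12.09 and 12.28, and Il1r1, an interleukin 1 receptor, at 10.28 and 9.93 against 9.0 and 9.66 (-0.77 ± 0.24).

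The signalling chain below the deleted receptor showed no shared direction. Of 37 genes of G protein signalling 8 lay above (21.6%) and 4 below (10.8%), with a median difference of 0.00. Pik3cd, the leukocyte phosphoinositide 3-kinase, was 15.21 and 15.31 in WT and 15.55 and 15.44 in KO (0.23 ± 0.10). Gnai2, the main inhibitory G protein of lymphocytes, was 15.02 and 14.97 against 14.95 and 14.93, a difference of -0.05 ± 0.10. Arrb1, which encodes a beta-arrestin that quenches such receptors, was 11.36 and 11.50 against 11.76 and 11.55.

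Complement components and regulators, 19 of 25 measured, were likewise mixed, with 2 above (10.5%) and 3 below (15.8%). Cd55 stood out among them by the rule of largest gaps. It encodes decay-accelerating factor, which dismantles the enzymes that activate C3 and C5 on the cell surface. Cd55 was 11.10 and 11.24 in WT and 11.82 and 11.87 in KO, a difference of 0.68 ± 0.13 with a 95% interval of 0.40 to 0.96 (adjusted p = 0.751, limma). The KO libraries lay together, 0.59 above the nearest WT library. Cd55 was picked for this gap and for a small p, so neither the gap nor the interval is separate support. In the naive libraries the Cd55 difference was -0.22, and the interaction of genotype and cell label, 0.89, did not pass (adjusted p = 0.381, limma).

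Heat shock genes held the largest difference of the comparison. Hspa1b, an inducible HSP70 chaperone gene, was 9.72 and 10.17 in WT and 5.85 and 6.30 in KO, a difference of -3.87 ± 1.38 (unadjusted p = 0.046, limma). Its neighbour Hspa1a was 8.58 and 9.17 against 4.64 and 5.71 (-3.70 ± 1.42). Both KO libraries lay far below both WT libraries for either gene. In the naive libraries Hspa1b was 9.99 and 13.81 in WT and 5.88 and 4.85 in KO, so the WT libraries there were far apart, and the SE pools that spread. Fitted on the 4 TFH libraries alone, Hspa1b passed (-3.87 ± 0.24, adjusted p = 0.000824, limma) as the single call of that fit. Without naive WT replicate 2, Hspa1a and Hspa1b both passed, each with an adjusted p of 0.0425 (limma).

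The pair are near-identical copies, and the counting of reads that match both is not given in the sources used here, so the values of the 2 genes cannot be treated as separate measurements. Their 250 bases before the start are shown because they are nearly identical as well. They lie at chr17:34972157-34972406 (Hspa1a) and chr17:34959239-34959488 (Hspa1b) on the minus strand of GRCm38.p6, with the differing bases in capitals.
Hspa1a: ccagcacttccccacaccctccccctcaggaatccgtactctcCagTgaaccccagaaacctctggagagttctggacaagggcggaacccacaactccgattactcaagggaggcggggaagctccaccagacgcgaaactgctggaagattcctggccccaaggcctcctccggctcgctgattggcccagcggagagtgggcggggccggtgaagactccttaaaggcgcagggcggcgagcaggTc
Hspa1b: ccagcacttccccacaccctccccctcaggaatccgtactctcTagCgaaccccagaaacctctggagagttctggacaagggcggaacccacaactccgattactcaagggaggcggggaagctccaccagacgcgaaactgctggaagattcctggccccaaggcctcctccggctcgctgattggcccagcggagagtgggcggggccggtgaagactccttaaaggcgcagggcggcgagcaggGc
The windows are identical at 247 of 250 bases and differ at 3.

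Of 30 measured heat shock chaperone genes 15 lay below in both KO libraries (50%) and 3 above (10.0%), with a median of -0.10. Hsph1, an HSP110 family gene, was 12.67 and 12.84 in WT and 12.10 and 12.16 in KO (-0.63 ± 0.33). Dnajb1, an HSP40 cochaperone gene, was 13.11 and 13.10 against 12.76 and 12.52 (-0.47 ± 0.17). Hspd1, the mitochondrial chaperonin, was 13.47 and 13.49 against 13.10 and 13.22 (-0.32 ± 0.10). These 3 separated the genotypes, but they were named for a wide gap or a small p, so the separation follows from that choice. Hsf1, the factor that drives the heat shock response, lay above, at 11.57 and 11.60 against 11.79 and 11.81 (0.22 ± 0.10).

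Cytotoxic and NK cell genes included several that lay above WT. Prf1, the gene for perforin, was 8.88 and 9.14 in WT and 9.65 and 9.71 in KO (0.67 ± 0.13, adjusted p = 0.84, limma). Ctsw, a protease gene of cytotoxic cells, was 11.24 and 11.28 against 11.68 and 11.61 (0.38 ± 0.12). Fasl, the death ligand gene, was 9.56 and 9.61 against 10.07 and 9.84 (0.37 ± 0.13). The genotypes did not overlap for these genes, which were named for a wide gap or a small p, so this follows from the choice. Prf1 had a naive difference of -0.35 with an interaction of 1.03 that did not pass (adjusted p = 0.27, limma). Among 30 Th1 and cytotoxic effector genes, however, 6 lay above and 4 below with a median of -0.01, and Tbx21, the Th1 factor gene, was 9.92 and 9.99 against 9.71 and 9.84.

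The CD8 T and NK list had 23 measured genes, of which 21 had the higher mean in KO, 5 lay above in both libraries (21.7%) and 1 below (4.35%). Klrc1 and Klrd1 encode the partners of an NK receptor. Klrc1 was 7.02 and 7.28 in WT and 7.61 and 8.26 in KO (0.79 ± 0.24), and Klrd1 was 7.66 and 8.40 against 8.64 and 8.73 (0.66 ± 0.22). The NK marker set given above was itself lowest in WT replicate 1. The median of the CD8 and NK list was 0.34, but 0.02 without WT replicate 1 and 0.12 without KO replicate 2, against 0.74 without WT replicate 2 and 0.70 without KO replicate 1. Whether the NK transcripts came from another cell type was not tested.

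Several other groups had medians near 0, while the 40 measured myeloid genes had a median of 0.24. Of these, 32 had the higher mean in KO (50.3% of all genes did), 2 lay above (5.0%) and 0 below. The myeloid median was -0.28 without WT replicate 1 and -0.12 without KO replicate 2. It was 0.75 without WT replicate 2 and 0.56 without KO replicate 1. Ribosomal proteins had 1 of 58 above (1.72%) and 5 below (8.62%), both shares under the 16.5% of all genes, with a median of -0.04. Myc targets and ribosome biogenesis had 5 of 35 above (14.3%) and 9 below (25.7%, median -0.01), and Myc itself differed by 0.11. Cytokine receptors had 6 of 24 above and 6 below (25% each way, median 0.03), and chemokine receptors and homing genes 6 of 28 above (21.4%) and 8 below (28.6%, median 0.02). Of 30 survival and death genes 6 lay above and 4 below. The proapoptotic gene Bmf was 6.89 and 6.86 in WT and 7.22 and 7.66 in KO (0.57 ± 0.19).

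Apart from gene lists, the members with the widest gap between genotypes were ranked at a mean level of at least 8. Plaur, the urokinase receptor gene, led the upper side at 7.11 and 7.87 in WT and 8.49 and 9.45 in KO (1.48 ± 0.34). It is also used by myeloid cells, whose markers were likewise higher in replicate 2 of each genotype. With B cell level as a covariate the Plaur difference was 1.30, an adjustment that does not cover myeloid content. Plaur lies 8.22 Mb from C5ar1 by gene centres, and it was higher in both naive KO libraries as well (0.81 ± 0.34). The part of that position in the difference was not tested. Dqx1, a putative helicase gene, had tight pairs at 9.69 and 9.72 against 10.23 and 10.22 (0.52 ± 0.12). Eya2, a transcriptional coactivator gene, was 9.13 and 9.25 against 10.27 and 9.65 (0.77 ± 0.18). In each case both KO libraries lay above both WT libraries by at least 0.40.

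On the lower side, Eps8l1, related to the actin regulator EPS8, was 9.71 and 9.74 in WT and 8.58 and 8.41 in KO (-1.23 ± 0.38). This gene lies at -11.78 Mb from C5ar1 and differed by -3.56 ± 0.38 in the naive libraries (adjusted p = 0.0564, limma). Tshz2, a zinc finger gene, was 9.18 and 9.16 against 7.52 and 8.22 (-1.30 ± 0.37). Lpar3, a receptor for lysophosphatidic acid, was 8.71 and 8.52 against 7.48 and 7.67. Stc2, a secreted glycoprotein gene, was 9.09 and 8.59 against 7.76 and 7.63 (-1.15 ± 0.31). Il1r2, the decoy receptor for interleukin 1, was 10.97 and 10.88 against 9.68 and 10.31 (-0.93 ± 0.54). Cd109, a surface protein of the complement C3 family, was 10.40 and 10.24 against 9.22 and 9.74 (-0.84 ± 0.23). None of these passed adjustment, and the genes were picked for their gap, so the separation is the rule and no finding.

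By p instead of gap, Irgc1, an immunity-related GTPase family gene, was first on the upper side at 4.36 and 4.52 in WT and 6.33 and 6.19 in KO (1.82 ± 0.29, adjusted p = 0.475, limma). These values lie below the level of 8 required for the gap ranking. Irgc1 lies 8.19 Mb from C5ar1 and differed by 4.69 in the naive libraries. Ptp4a3, a phosphatase gene, was 12 in both WT libraries against 12.34 and 12.50, and Ppp3ca, a catalytic subunit of calcineurin, was 10.69 and 10.74 against 11.09 and 11.11. Ddit4, a stress-induced inhibitor of mTORC1, was among the first on the lower side, at 11.67 and 11.46 against 10.74 and 11.20 (-0.60 ± 0.15). Both libraries of each genotype kept together for the first 3 of these genes, and less so for Ddit4.

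**Figure D4:**
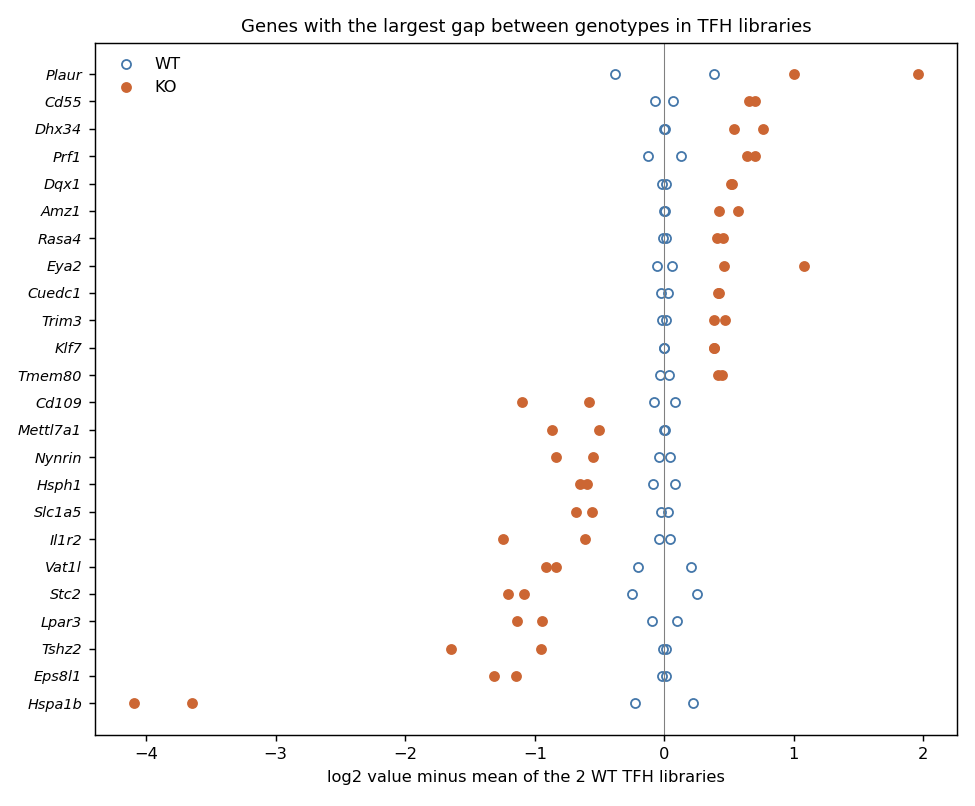
Values of the 4 TFH libraries for the 12 genes with the widest gap in each direction at a mean level of at least 8, as log2 value minus the mean of the 2 WT libraries (open circles WT, filled circles KO). Hspa1b lies farthest from WT on the lower side and Plaur on the upper side. The genes were chosen for this gap.

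Several of the genes with wide gaps lie near the deleted gene, which sits at chr7:16246743-16259540 on the minus strand (GRCm38, GENCODE vM21). Within 20 Mb of it, 120 of 361 genes separated the genotypes in the TFH libraries (33.2%), 74 above and 46 below. The share was 33.2% on the rest of chromosome 7 and 33.2% on other chromosomes. Separation as such was thus no more frequent within 20 Mb. In narrower windows the share was 33.5% within 10 Mb, 35.2% within 5 Mb and 38.5% within 2 Mb (26 genes). An unadjusted p below 0.05 (limma) was reached by 5.54% within 20 Mb and 11.5% within 2 Mb. It was reached by 3.8% on the rest of the chromosome and 3.57% on other chromosomes. Whether these shares change with distance was not tested. Differences of at least 0.5 in either direction made up 4.71% within 20 Mb, 2.53% on the rest of the chromosome and 2.8% elsewhere. In the naive libraries, where 15.2% of all genes separated above and 11.2% below, the share that separated either way was 42.7% within 20 Mb, 25.2% on the rest of the chromosome and 26.0% elsewhere. Of 26 measured genes listed as neighbours of C5ar1, 9 lay above in the TFH libraries (34.6%) and 3 below (11.5%).

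Dhx34, an RNA helicase gene of nonsense-mediated decay at -0.04 Mb from C5ar1 by gene centres, was 11.01 and 11.02 in WT and 11.55 and 11.78 in KO (0.65 ± 0.12). It differed by 0.52 ± 0.12 in the naive libraries, where it did not pass either (adjusted p = 0.525, limma). Slc1a5, the glutamine transporter gene 0.54 Mb away at chr7:16781340-16798274 on the plus strand, was 13.86 and 13.81 in WT and 13.15 and 13.28 in KO (-0.62 ± 0.10, adjusted p = 0.475, limma). In the naive libraries it was 13.90 and 14.04 in WT and 11.56 and 11.63 in KO (-2.38, adjusted p = 7.13e-07, limma). Both KO libraries were thus low under both labels, and the step was larger in the naive cells. Bcam, a cell adhesion gene 3.51 Mb away, was 8.25 and 8.09 against 7.33 and 6.96 (-1.03 ± 0.23) in TFH libraries and differed by -1.99 in naive libraries.

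Between naive genotypes 10 genes passed (0.0712%, limma), 5 higher and 5 lower in KO. Without naive WT replicate 2 there were 17, and 8 of the 10 were among them. All 9 of them that had a position lie within 20 Mb of C5ar1, and Gm19897 had none. In TFH libraries the difference was smaller for all 10 and had the same sign for 9, all but Zfp974. Its median was 14.1% of the naive difference. The 10 genes were picked for their naive difference, and that choice by itself favours a smaller one in TFH libraries. Bcam, Fbxo17, Irgc1 and Slc1a5 separated the genotypes there and the other 6 did not. The interaction of genotype and label passed for 2 genes (0.0142%, limma), Slc1a5 at 1.75 (adjusted p = 0.000954) and Fbxo17 at -1.71 (adjusted p = 0.00959). Slc1a5 passed with any 1 library left out. Fbxo17 did not pass without TFH WT replicate 1 (-1.72, adjusted p = 0.0642, limma), TFH WT replicate 2 (-1.69, adjusted p = 0.0734, limma) or TFH KO replicate 1 (-1.68, adjusted p = 0.0611, limma). Without the variance trend of the model neither passed, each with an adjusted p of 0.109 (limma). Fbxo17, an F-box protein gene, was 9.58 and 9.61 in TFH WT, 9.96 and 10.00 in TFH KO, 8.72 and 8.93 in naive WT and 10.85 and 10.99 in naive KO.

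For the same 10 genes the TFH levels were also placed between the naive ones. The TFH KO mean lay between the naive WT and naive KO means for all 10, and the TFH WT mean for 8, the exceptions being Bcam and Irgc1. The median gene had gone 43.2% of the way from naive WT to naive KO in TFH KO and 29.0% of it in TFH WT. These genes were chosen for their naive difference, and its change in TFH cells was tested only by the interaction.

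**Figure D5:**
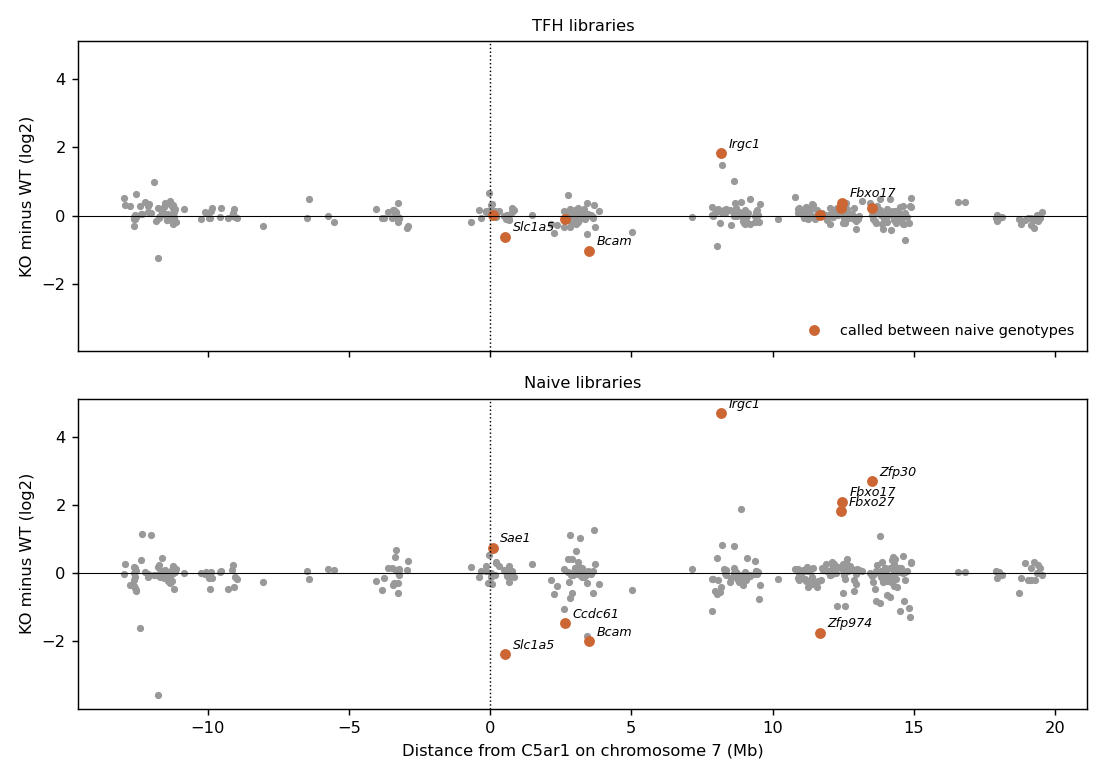
Each point is a gene within 20 Mb of C5ar1 (dotted line), with its distance on the horizontal axis in Mb and its KO minus WT difference (log2) on the vertical axis, for TFH libraries above and naive libraries below. Orange points passed between naive genotypes. Irgc1 reaches 4.69 in naive and 1.82 in TFH libraries, and Slc1a5 -2.38 and -0.62.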

How the data were processed

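Per the labels' protocols, column-purified RNA was read in single-end runs of 51 bp. The submitters' processing notes name BWA and mm10 without versions, and no counting, annotation or normalization step is given in the sources used here. As deposited, each library has 1 table of log2 values for 14042 genes, from 1.16 to 19.48. Sorted values of the 8 libraries agree within 0.03 above the lowest percentile, so they were quantile normalized. Whether they were scaled for gene length is unknown, so levels of different genes were not compared.

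limma 3.58.1 (R 4.3.3; trend and robust options) was fitted to all 8 libraries with 1 mean per group (4 residual degrees of freedom) and p-values were adjusted over all genes at 0.05. It was checked on simulated data. The genotype effect in TFH and in naive libraries and their interaction were tested. Genes named were the 12 widest gaps (mean of at least 8) and the 12 smallest p each way, up to 6 members per list and a fixed set with Bcl6, and not every one is printed. Members and the 30 lists were chosen with earlier results of these data known, and lists are described by counts and medians. Positions are GENCODE vM21 (GRCm38, the build mm10 names), with 13738 symbols matched, and promoters RefSeq GRCm38.p6. Alternatives covered the model options, low genes, scaling, marker covariates, library weights and leaving out libraries.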

Additional observations from a re-analysis of the deposited data

Results flagged for a closer look

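The genotype difference itself differed between TFH and naive libraries for 2 genes. For Slc1a5 the interaction was 1.75 (adjusted p = 0.000954, limma interaction), with KO below WT in both libraries of both labels. For Fbxo17 the interaction was -1.71 (adjusted p = 0.00959, limma), with KO above WT in both libraries of both labels.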

How the results depend on the processing

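No paired analysis was possible because replicate numbers were assigned by accession order and link no samples across groups. The count of 0 genes between TFH genotypes became 1 with the compared groups only (Hspa1b) and 0 to 2 when 1 library was left out (2, Hspa1a and Hspa1b, without naive WT replicate 2). The naive count of 10 ran from 7 to 17 (17 without naive WT replicate 2, of which 8 were among the 10). The interaction count of 2 ran from 1 to 7, with 7 without naive KO replicate 2, 4 without naive WT replicate 1 and 1 without any of TFH WT replicate 1, TFH WT replicate 2 and TFH KO replicate 1. It was 0 without the variance trend (638 at an unadjusted p below 0.05) and 1 without replicate 1 of both TFH groups. Genes called only under some alternatives of the interaction included Irgc1, Fmo1 and Stmn1. Genes separated above ran from 4329 to 5321 and below from 3982 to 5653 with 1 library fewer, a count that is larger by construction. Reversed differences were Bcl6 0.23 and Cd40lg -0.08 without replicate 1 of both TFH groups, and Foxp3 0.04 and Myc -0.01 without replicate 2 of both. With 1 library left out, Bcl6 ran from -0.37 to 0.21, Cd40lg from -0.06 to 0.11, Foxp3 from -0.11 to 0.07, Mki67 from -1.23 to 0.24, Myc from -0.03 to 0.25, Sh2d1a from -0.29 to 0.02, Ccnb1 from -1.27 to 0.07, Ifit2 from -0.09 to 0.17, Ms4a1 from -1.17 to 3.09 and Pax5 from -0.42 to 1.94. Zfp974 (0.01) was -0.06 without replicate 2 of both TFH groups and ran from -0.05 to 0.07. The cause was not tested. A lone library was assumed to vary like the other groups. Of 30 list medians 13 changed sign under some alternative, while those of the TFH program, interferon-stimulated, replication, glycolysis, immediate early, naive and heat shock genes did not.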
